A study of Mus musculus with 16 samples.

Results

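The genes described are those of the mitochondrial ribosomal proteins, taken as every gene whose symbol on the array platform is Mrpl or Mrps followed by digits and at most 1 letter. The rule found 77 of the 19938 genes measured with a symbol of their own, 48 named Mrpl and 29 named Mrps. A gene with several transcript clusters, the probe sets of this array, was represented by the one with the highest mean over all 16 arrays. That choice touched 8 of the 77 genes and was the only use of measured values in the rule. Mrpl53 shares its only cluster with another gene, Ccdc142, and was not analysed here.

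The arrays form 4 groups of 4: RPE of light-exposed mice, RPE of control mice, NSR of light-exposed mice and NSR of control mice. RPE is the isolated retinal pigment epithelium, the cell layer behind the photoreceptors, and NSR is the neurosensory retina. All 8 mice were male Balb/cJ, an albino strain, aged 10 weeks, and each gave 1 array per tissue. For 18 hours the 4 light-exposed mice sat under cool white fluorescent lamps at 10000 lux, and their tissue was taken 4 hours later, while the 4 control mice stayed on a 12-hour light-dark cycle. An effect of brightness and one of the altered light schedule cannot be told apart. Values are log2 expression values as deposited, so that a difference of 1 is a 2-fold difference, and the number of arrays limits their precision.

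Mitochondria keep their own ribosome, which translates the few membrane proteins of the respiratory chain and the ATP synthase that mitochondrial DNA encodes. Its RNAs come from mitochondrial DNA, while all of its proteins are encoded in the nucleus, made in the cytosol and imported. Part of them descend from proteins of the bacterial ribosome, and the others were added during the evolution of mitochondria. Photoreceptors and pigment epithelium both depend on mitochondrial respiration, and inherited defects of several of these proteins cause respiratory chain disease in humans.

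By their known place in the ribosome, 50 of the 77 genes belong to the large subunit and 26 to the small one. The large subunit holds 30 proteins with a bacterial counterpart and 20 specific to mitochondria, the small subunit 16 and 10. Some names mislead: the proteins of Mrps30 and Mrps18a sit in the large subunit despite their small-subunit symbols, and they were counted there. Mrps36, now known as a component of the alpha-ketoglutarate dehydrogenase complex, was counted in neither. By mean signal over all arrays, 0 of the 77 genes lay among the dimmest 25% of all genes and 76 lay above the median gene, although the files hold no measure of background.

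Tissue markers fitted the labels. The median of 10 of 12 rod markers was 7.81 to 8.69 on light-exposed RPE arrays, 8.14 to 8.71 on control RPE arrays, 11.47 to 11.70 on light-exposed NSR arrays and 12.14 to 12.20 on control NSR arrays. The median of 9 of 10 RPE markers was 11.22 to 11.51 in light-exposed RPE, 12.19 to 12.34 in control RPE, 5.59 to 5.95 in light-exposed NSR and 5.56 to 5.95 in control NSR. Both marker lists were thus lower after light in their own tissue, and in whole tissue fewer cells of a type cannot be told apart from less RNA per cell. Markers of other tissues stood apart on several RPE arrays. A set of 11 lens markers had a median of 7.26 on control RPE array 2. A set of 8 markers of cornea and ciliary body had a median of 8.60 on light-exposed RPE array 2. Rod markers had a median of 8.69 on light-exposed RPE array 1, against 7.81 to 7.99 on the others of that group. These 3 arrays are called below the RPE arrays that stood apart. Arrays of 1 group correlated at a mean r of 0.987 to 0.991.

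Transcripts for the mitochondrial ribosome were higher in RPE than in NSR, and higher in light-exposed than in control RPE. The median of the 77 genes on an array was 8.95 to 9.04 in light-exposed RPE, 8.67 to 8.82 in control RPE, 8.32 to 8.48 in light-exposed NSR and 8.20 to 8.37 in control NSR. The light-exposed and control RPE arrays did not overlap, all RPE arrays were above all NSR arrays, and the light-exposed and control NSR arrays overlapped. Control RPE array 3 was the highest of its group at 8.82, with the other 3 between 8.67 and 8.68. The median of all 19938 genes stayed between 6.70 and 6.78 on the 16 arrays. That of all clusters, with those of no or several symbols included, differed between the tissues. It was 6.38 to 6.43 on the RPE arrays and 6.52 to 6.57 on the NSR arrays, without overlap.

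**Figure D1:**
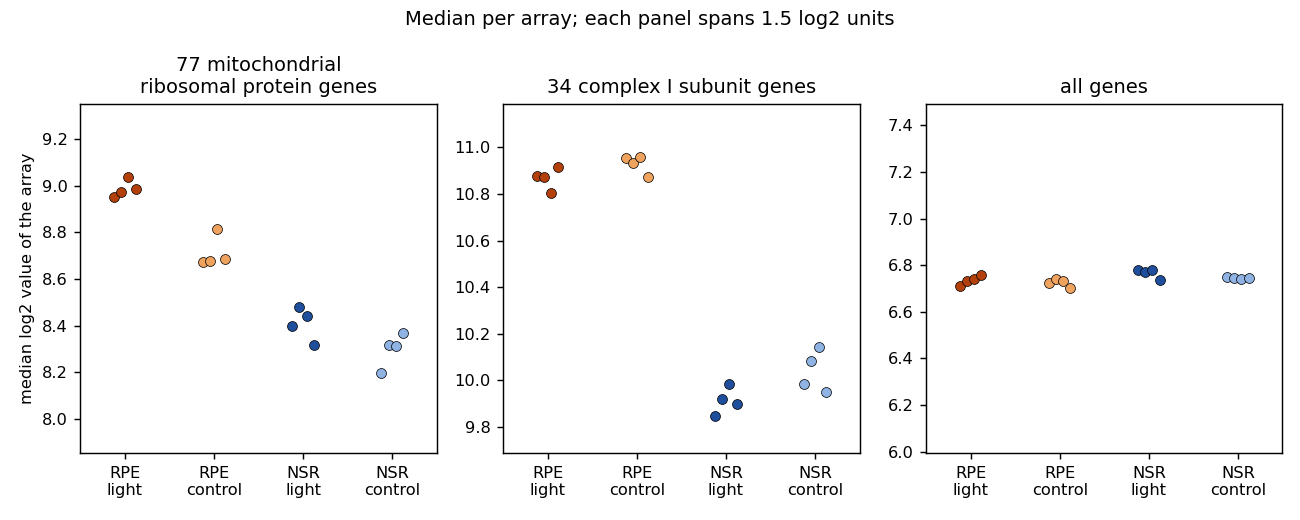
Median log2 value on each array (1 point per array, 4 per group) for the 77 mitochondrial ribosomal protein genes, for 34 nuclear genes of complex I and for all 19938 genes; each vertical axis spans 1.5 log2 units. The medians of the 77 genes on the light-exposed RPE arrays, 8.95 to 9.04, all lie above those of the control RPE arrays, 8.67 to 8.82, while the medians of all genes stay within 6.70 to 6.78. Medians of all clusters, not plotted, are lower on the RPE arrays (6.38 to 6.43) than on the NSR arrays (6.52 to 6.57).

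In control mice, RPE held more mRNA of most members than NSR. The difference between the tissues was largest for Mrps6, Mrpl36, Mrpl58, Mrps18a, Mrps7 and Mrpl20, at 2.17-fold to 4.72-fold. Of the 77 genes, 63 were higher in RPE, 2 were lower and 12 were not called, at an adjusted p under 0.05 from limma's moderated test with Benjamini-Hochberg adjustment over all 19938 genes. Among all genes, 30.8% were higher and 24.2% lower, 55.0% together. The median difference of the members was 0.46, against 0.04 over all genes. RPE and NSR arrays did not overlap for 58 genes that were higher in RPE and 2 that were lower, against 29.5% and 22.8% of all genes. Every class took part: 25 of 30 bacterial-type and 17 of 20 mitochondria-specific proteins of the large subunit were higher, and 12 of 16 and 8 of 10 of the small subunit. The members called in RPE reached 1.5-fold in 26 genes and 2-fold in 8, all of them higher. How many of all genes passed these folds was not counted, so these 2 counts have no background share. Rod markers were lower on the RPE arrays and RPE markers higher, as given above, and their part in the difference was not tested. Other cell types' markers were also higher in RPE: 9 of 10 markers of microglia and macrophages had a median of 7.07 to 7.76 on control RPE arrays and 5.98 to 6.04 on control NSR arrays, and 6 of 6 fibroblast markers one of 7.01 to 7.74 and 6.33 to 6.55. In light-exposed mice these medians were 7.14 to 7.87 in RPE and 5.98 to 6.49 in NSR for microglia and macrophages, and 7.47 to 7.60 and 6.20 to 6.44 for fibroblasts. Their part was not tested either. A pair of other scalings moved the median of all genes by more than 0.1 and are to be read beside these counts. With each array centred on its median, 72.2% of all called genes were higher in RPE, against 56.0% as deposited, the median of all genes was 0.19 and that of the members 0.61. With quantile normalization these values were 66.4%, 0.15 and 0.41, and the members higher and lower in RPE then numbered 58 and 2 while 43.8% of all genes were higher.

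Mrpl36, a small protein of the large subunit, had 9.08, 8.99, 9.30 and 9.08 in control RPE, against 7.19, 7.20, 6.92 and 7.02 in control NSR. Its tissue difference of 2.03 (SE 0.09, 4.08-fold, limma adjusted p = 7.11e-13) separated all arrays. Mrpl58 encodes a peptidyl-tRNA hydrolase built into the large subunit, known for releasing stalled chains. It had 10.53, 10.46, 10.54 and 10.53 in control RPE, against 8.57, 8.82, 8.84 and 8.50 in control NSR, a difference of 1.83 (SE 0.09, limma adjusted p = 5.85e-12). Mrps18a was higher by 1.64 (SE 0.07) and Mrpl20, whose bacterial counterpart is needed to assemble the large subunit, by 1.12 (SE 0.07). The RPE arrays were above all NSR arrays for each of these 4 genes. Mrps7, a protein of the small subunit's head, had 9.44, 9.73, 9.49 and 9.56 in control RPE, against 7.93, 8.04, 7.97 and 7.96 in control NSR, 2.99-fold higher (limma adjusted p = 1.84e-12). The RefSeq spans of Mrps18a and Mrps7 overlap those of Rsph9 and of Gga3 and Mif4gd, and probe positions were not used here.

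The 3 genes named Mrps18 descend from the gene of 1 bacterial ribosomal protein. Mrps18a differed by 1.64 between control RPE and control NSR, Mrps18b by 0.31 (SE 0.12) and Mrps18c by 0.28 (SE 0.07). All 3 were called in the test as deposited, but Mrps18b and Mrps18c lost their call under quantile normalization (for Mrps18c, limma adjusted p = 0.217). Mrps18b also lost it without light-exposed mouse 3, without control mouse 1, 2 or 3, and without the RPE arrays that stood apart. Over all the settings in which Mrps18b lost its call, its limma adjusted p was up to 0.178. Mrps36 was higher in control RPE by 0.81 (SE 0.08) and Mrps30 differed by -0.13 (SE 0.09, not called).

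The exceptions were a pair of small-subunit genes. Mrps5 had 8.33, 7.94, 8.09 and 8.13 in control RPE, against 8.47, 8.57, 8.43 and 8.48 in control NSR, lower by 0.37 (log2 difference -0.37, SE 0.07, limma adjusted p = 0.000292). Mrps22 had 8.61, 8.84, 8.82 and 8.66 in control RPE, against 9.07, 9.16, 8.96 and 9.13 in control NSR, a log2 difference of -0.35 (SE 0.07, limma adjusted p = 0.000488). For both, every RPE array was below every NSR array. Mrps5 belongs to the bacterial-type proteins and Mrps22 to those specific to mitochondria.

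**Figure D2:**
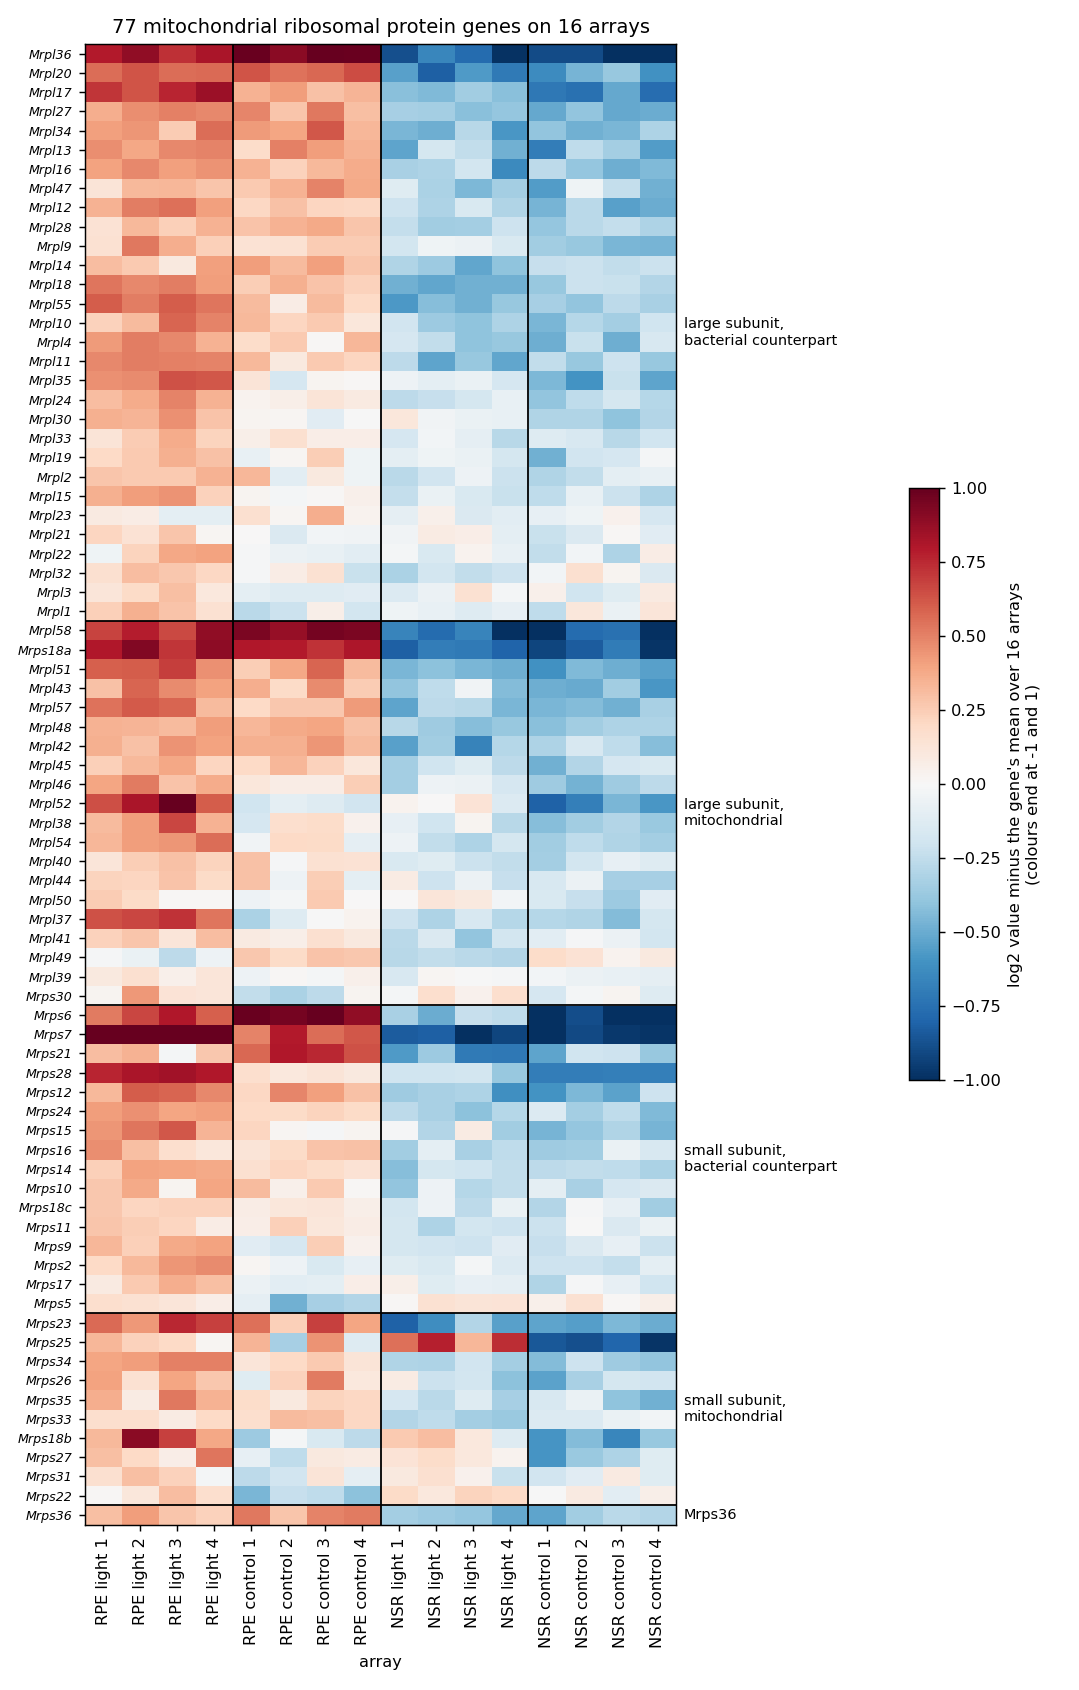
Log2 value of each of the 77 genes (rows, grouped by place in the ribosome) on each of the 16 arrays (columns) after subtracting the gene's mean over the 16 arrays; red is above and blue below that mean, with colours ending at -1 and 1. Most rows are red on the RPE arrays and blue on the NSR arrays, and for most of them the light-exposed RPE arrays are the deepest red; Mrps25, Mrps5, Mrps22 and Mrpl49 depart from this pattern.

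In light-exposed RPE, 28 of the 77 genes were higher than in control RPE, 3 were lower and 46 were not called (limma, adjusted p under 0.05). Among all genes, 9.08% were higher and 8.53% lower, 17.6% together. With the dimmest 25% of genes left out, 30 members were higher and 3 lower while 12.8% of the genes kept were higher. Mrpl52, Mrps18b, Mrpl37, Mrps28, Mrps7 and Mrpl35 led the rise, at 1.46-fold to 1.91-fold, and Mrps21, Mrpl49 and Mrps6 fell. The median difference of the members was 0.18, a 1.13-fold difference, and that of all genes -0.01. The estimate was above 0 for 64 of the 77 genes. Light-exposed and control RPE arrays did not overlap for 33 genes that were higher and 4 that were lower, against 11.3% and 10.9% of all genes. Of the members called higher, 5 passed 1.5-fold and 0 passed 2-fold, and the shares of all genes past these folds were not counted. By class, 11 of 30 bacterial-type and 6 of 20 mitochondria-specific genes of the large subunit rose, and 8 of 16 and 3 of 10 of the small subunit. RPE markers were lower on the light-exposed RPE arrays, and cornea and ciliary body markers were high on 1 of them, and their part in the rise was not tested. Without control RPE array 2 and light-exposed RPE arrays 1 and 2, a choice made with an earlier analysis of these arrays known, 13 members were higher and 2 lower while the share of all genes called higher was 5.01%, and the members' median was 0.19. With the replicate number as a block, 23 members were higher and 3 lower while 7.63% of all genes were higher.

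Mrpl52, a mitochondria-specific protein of the large subunit, had 8.67, 8.84, 9.07 and 8.63 in light-exposed RPE, against 7.83, 7.93, 7.89 and 7.84 in control RPE. All light-exposed arrays were above all control arrays, and the difference was 0.93 (SE 0.09, 1.91-fold, limma adjusted p = 0.000142). Mrps18b had 8.98, 9.56, 9.34 and 9.04 in light-exposed RPE, against 8.29, 8.64, 8.50 and 8.39 in control RPE, 1.71-fold higher (limma adjusted p = 0.00237). Its light-exposed arrays spread more widely than its control arrays and did not overlap with them. Neither Mrps18a, at 0.05 (SE 0.07), nor Mrps18c, at 0.15 (SE 0.05), was called.

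Mrps28, a small-subunit protein whose defects cause disease in humans, had 10.06, 10.12, 10.14 and 10.10 in light-exposed RPE, against 9.47, 9.41, 9.43 and 9.40 in control RPE. The difference of 0.68 (SE 0.05, limma adjusted p = 4.51e-05) stood far outside the spread of either group. Mrpl37 had 9.18, 9.22, 9.27 and 9.09 in light-exposed RPE, against 8.23, 8.42, 8.54 and 8.58 in control RPE, a difference of 0.75 (SE 0.09, limma adjusted p = 0.000279). Mrps7 had 10.16, 10.25, 10.09 and 10.27 in light-exposed RPE, against 9.44, 9.73, 9.49 and 9.56 in control RPE, a difference of 0.64 (SE 0.08, limma adjusted p = 0.000432). Both genes were higher on all 4 light-exposed arrays than on any control array. Mrpl35 rose by 0.55 (SE 0.08), and Mrps30, in the large subunit, by 0.38 (SE 0.11, limma adjusted p = 0.0322) with overlapping arrays. The call of Mrps30 was lost without light-exposed RPE array 2, 3 or 4, without control RPE array 1, 2 or 3, without the arrays that stood apart together and with the replicate block (adjusted p up to 0.179).

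Mrps5 and Mrps22, the pair lower in control RPE than in control NSR, rose in light-exposed RPE. Mrps5 had 8.59, 8.57, 8.54 and 8.48 in light-exposed RPE, 0.42 above control RPE (SE 0.08, limma adjusted p = 0.00588), and Mrps22 had 9.08, 9.18, 9.38 and 9.24, 0.49 above control RPE (SE 0.08, limma adjusted p = 0.00245). The light-exposed RPE arrays of both genes overlapped with the light-exposed NSR arrays, and the tissues then differed by 0.02 and -0.03 (SE 0.07 each, not called). The rise of Mrps5 was not called without the RPE arrays that stood apart (limma adjusted p = 0.101).

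The genes that fell in light-exposed RPE were 1 of the large and 2 of the small subunit. Mrps21 had 10.84, 10.88, 10.51 and 10.80 in light-exposed RPE, against 11.10, 11.33, 11.28 and 11.17 in control RPE, a log2 difference of -0.46 (SE 0.09, limma adjusted p = 0.00611). Mrpl49, a mitochondria-specific protein of the large subunit, had 10.47, 10.42, 10.22 and 10.43 in light-exposed RPE, against 10.76, 10.67, 10.77 and 10.75 in control RPE, a log2 difference of -0.35 (SE 0.07, limma adjusted p = 0.00592). In both genes all light-exposed arrays lay below all control arrays. Mrps6, treated further on, fell by 0.31 (SE 0.07, limma adjusted p = 0.0137), a call lost without the RPE arrays that stood apart (adjusted p = 0.166). Mrps36 differed by -0.15 (SE 0.08, not called).

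In light-exposed NSR, 11 of the 77 genes were higher than in control NSR, 4 were lower and 62 were not called (limma, adjusted p under 0.05). Among all genes, 8.87% were higher and 6.24% lower, 15.1% together, and of the members 14.3% and 5.19%. With the dimmest 25% of genes left out, 11 members were still higher and 4 lower. Of the genes then kept, 12.4% were higher, near the members' share of 14.3%. Mrps25 and Mrps6 rose most, followed by Mrps18b, Mrpl52, Mrps27 and Mrps28. The median difference of the members was 0.05, against -0.02 over all genes. Light-exposed and control NSR arrays did not overlap for 13 genes that were higher and 5 that were lower, against 10.7% and 9.97% of all genes. By class, 4 of 30 bacterial-type and 2 of 20 mitochondria-specific genes of the large subunit rose, and 2 of 16 and 3 of 10 of the small subunit. With arrays centred on their medians 12 members were higher and 1 was lower while 10.2% of all genes were higher, and the share of called genes that were higher was 67.3%, against 58.7% as deposited.

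Mrps25, a mitochondria-specific protein of the small subunit, had 9.50, 9.73, 9.28 and 9.68 in light-exposed NSR, against 8.10, 8.07, 8.16 and 7.97 in control NSR. The rise of 1.47 (SE 0.10, 2.78-fold, limma adjusted p = 8.07e-07) was the largest light response among the 77 genes in either tissue, and the only one past 2-fold. Mrps6, of the bacterial type, had 8.88, 8.71, 8.97 and 8.95 in light-exposed NSR, against 7.69, 8.32, 7.83 and 7.85 in control NSR, a rise of 0.95 (SE 0.12, 1.94-fold, limma adjusted p = 0.00017). Both genes separated all light-exposed from all control NSR arrays.

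Mrps18b had 8.92, 8.97, 8.76 and 8.53 in light-exposed NSR, against 8.07, 8.22, 8.01 and 8.27 in control NSR, 1.57-fold higher (limma adjusted p = 0.000873). Mrpl52 had 8.06, 8.03, 8.16 and 7.89 in light-exposed NSR, against 7.22, 7.34, 7.57 and 7.45 in control NSR, 1.56-fold higher (limma adjusted p = 0.000311). The groups did not overlap for either gene. Mrps27, an RNA-binding protein of the small subunit, rose by 0.46 (SE 0.09), Mrps28 by 0.45 (SE 0.06) and Mrpl35 by 0.35 (SE 0.08). Mrps18a, at 0.10 (SE 0.07), and Mrps18c, at 0.05 (SE 0.09), were not called in NSR either.

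Mrpl49 had 10.21, 10.24, 10.21 and 10.19 in light-exposed NSR, against 10.66, 10.63, 10.52 and 10.58 in control NSR, a log2 difference of -0.39 (SE 0.06, limma adjusted p = 0.000873). It was the one gene of the 77 called lower after light in both tissues. Mrpl32, whose protein is matured by a protease of the inner membrane, was lower by 0.24 (log2 difference -0.24, SE 0.07, limma adjusted p = 0.0497). Mrps33 had a log2 difference of -0.22 (SE 0.06) and Mrpl18 of -0.21 (SE 0.06). The arrays of the 2 groups did not overlap for these 3 genes, yet their calls were lost without most single arrays: Mrpl32 without any of the 4 light-exposed arrays or control array 1, 2 or 3, Mrpl18 without any light-exposed array or control array 2, 3 or 4, and Mrps33 without light-exposed array 1, 3 or 4 or control array 3 or 4 (limma adjusted p up to 0.128, 0.102 and 0.0799). All 3 also lost their call with centred arrays and with the replicate block, so that Mrpl49 alone remained among the genes called lower under those 2 settings.

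The responses of the tissues to light differed for 15 members. The difference was taken as the response of RPE minus that of NSR, in a fit of all 16 arrays. It was called above 0 for 12 genes and below 0 for 3, against 5.16% and 8.05% of all genes, 13.2% together, and its median was 0.12, against 0.02 over all genes. Of the members higher in light-exposed RPE, 6 were also higher in light-exposed NSR, 21 were called in RPE only and 1, Mrpl18, was lower in NSR. That a gene was called in a single tissue does not show that its responses differed. The difference was not called for Mrps30 at 0.22 (SE 0.13) or Mrps21 at -0.21 (SE 0.14), both called in RPE, nor for Mrps27 at -0.15 (SE 0.15) or Mrps33 at 0.13 (SE 0.08), both called in NSR. The 12 genes above 0 became 7 without control mouse 2 and 7 without the RPE arrays that stood apart. The share of all genes above 0 was then 4.03% and 4.43%, against 5.16% as deposited.

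Mrpl37 and Mrps7 showed the largest differences above 0. Mrpl37 rose by 0.75 in RPE and differed by 0.06 (SE 0.07) in NSR, where it had 8.34, 8.24, 8.39 and 8.26 in light-exposed and 8.26, 8.25, 8.11 and 8.37 in control mice. The responses differed by 0.69 (SE 0.11, limma adjusted p = 0.000347). Mrps7 rose by 0.64 in RPE and differed by 0.06 (SE 0.07) in NSR, where it had 8.10, 8.12, 7.89 and 8.02 in light-exposed and 7.93, 8.04, 7.97 and 7.96 in control mice. Its responses differed by 0.58 (SE 0.10, limma adjusted p = 0.00081). In NSR the light-exposed and control arrays of both genes overlapped.

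Mrpl32, Mrpl1, Mrpl55 and Mrpl18, all of the bacterial type in the large subunit, moved apart by smaller amounts. The response of Mrpl32 differed by 0.48 (SE 0.11), that of Mrpl1 by 0.47 (SE 0.12), that of Mrpl55 by 0.47 (SE 0.09) and that of Mrpl18 by 0.42 (SE 0.08), with limma adjusted p-values of 0.00811, 0.0136, 0.00204 and 0.00135. In RPE, Mrpl1 rose by 0.41 and Mrpl55 by 0.33, calls lost without the RPE arrays that stood apart (limma adjusted p = 0.124 and 0.0933). In NSR they differed by -0.06 and -0.14, not called. Mrpl18 was higher by 0.21 in RPE, a call that did not hold without any one of light-exposed RPE arrays 1, 2 and 3 or control RPE arrays 1, 3 and 4 (adjusted p up to 0.194), and Mrpl32 differed by 0.24 in RPE, not called. The difference for Mrpl1 was not called without control mouse 2 or 4, or without the arrays that stood apart (adjusted p up to 0.0902).

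Mrps5 and Mrps22 were also among these genes, with differences of 0.38 (SE 0.10, limma adjusted p = 0.0175) and 0.32 (SE 0.10, limma adjusted p = 0.0489). Mrps5 lost this call without light-exposed mouse 1, without control mouse 2, without the arrays that stood apart and with the mouse as a block (adjusted p up to 0.117). Mrps22 lost it without light-exposed mouse 2, 3 or 4, without control mouse 1, 2 or 4, with either other scaling and with the block (adjusted p up to 0.156). Mrpl36 differed by -0.40 (SE 0.12, limma adjusted p = 0.0359), from responses of -0.22 (SE 0.08) in RPE and 0.18 (SE 0.09) in NSR, neither called. Its call was lost without light-exposed mouse 1, 2 or 3, without control mouse 3 or 4 and with the block (adjusted p up to 0.147).

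**Figure D3:**
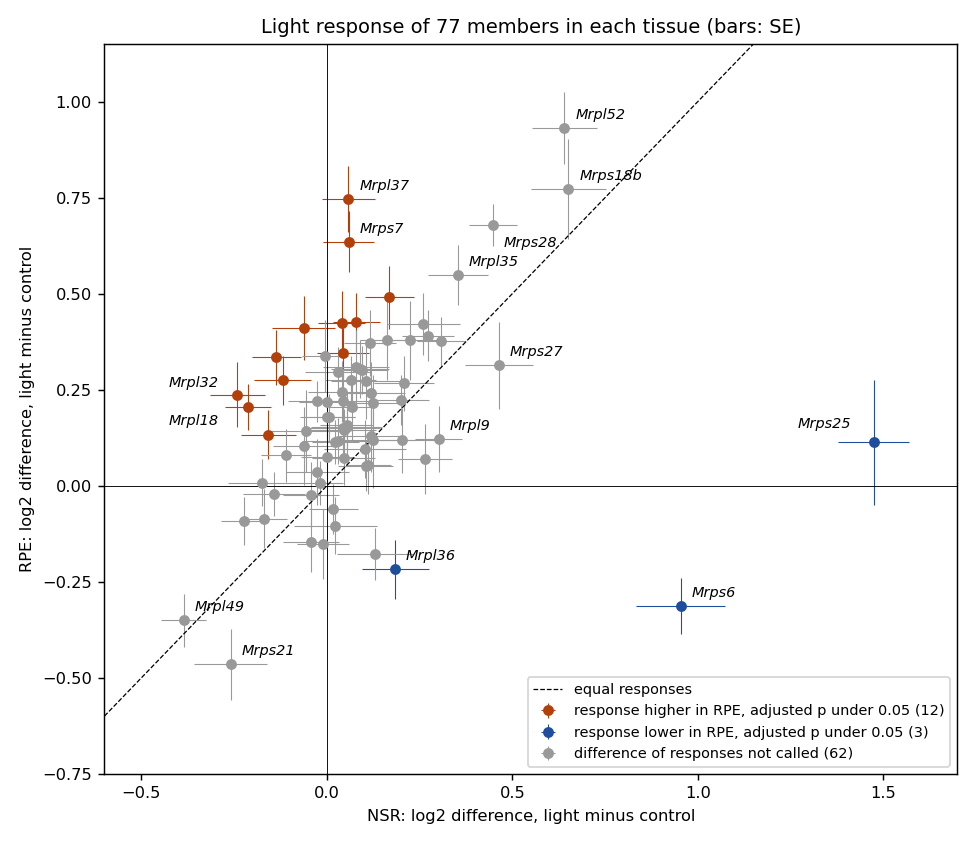
Log2 difference, light-exposed minus control, of each of the 77 genes in RPE (vertical axis) against NSR (horizontal axis), with bars of 1 SE; 12 genes with a larger response in RPE at an adjusted p under 0.05 are red-brown, 3 with a smaller one are blue, and the dashed line marks equal responses. Mrpl37 and Mrps7 lie near 0 in NSR and at 0.75 and 0.64 in RPE, and Mrps25 and Mrps6 lie far to the right at 1.47 and 0.95 in NSR.

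Mrps25 and Mrps6 had the largest differences of response, with the larger response in NSR. Mrps25 had 9.29, 9.18, 9.15 and 8.97 in light-exposed RPE, against 9.29, 8.62, 9.40 and 8.82 in control RPE, a difference of 0.11 (SE 0.16, not called) between overlapping groups. The responses differed by -1.36 (SE 0.20, limma adjusted p = 0.000153). Control RPE was above control NSR by 0.96 (SE 0.14), while light-exposed RPE was below light-exposed NSR by 0.40 (log2 difference -0.40, SE 0.14, limma adjusted p = 0.0214). The second of these calls was lost without light-exposed mouse 2 or 4 and with centred arrays (adjusted p up to 0.148).

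Mrps6 had 9.72, 9.87, 10.00 and 9.80 in light-exposed RPE, against 10.19, 10.16, 10.21 and 10.09 in control RPE. It fell in RPE, where it was highest, and rose in NSR, and the responses differed by -1.27 (SE 0.15, limma adjusted p = 1.73e-05). RPE exceeded NSR by 0.97 (SE 0.11) in light-exposed mice, against 2.24 (SE 0.11) in control mice. The RPE arrays were above all NSR arrays in both.

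Both genes share their place in the genome with another gene, and these 2 neighbours were named after their values had been seen. The RefSeq span of Mrps6 overlaps that of Slc5a3, the sodium-coupled transporter of myo-inositol. Slc5a3 had 8.44, 8.41, 8.46 and 8.16 in light-exposed RPE, against 9.04, 9.01, 9.27 and 9.23 in control RPE. In NSR it had 8.38, 8.38, 8.60 and 7.77 in light-exposed mice, against 7.53, 7.49, 7.45 and 7.48 in control mice. It thus moved in the same directions as Mrps6, lower by 0.77 in RPE (log2 difference -0.77, SE 0.09) and higher by 0.80 in NSR (SE 0.14), with responses that differed by -1.57 (SE 0.18, limma adjusted p = 1.4e-05). The span of Mrps25 overlaps that of Nr2c2, an orphan nuclear receptor. Nr2c2 differed by 0.21 (SE 0.07, not called) between light-exposed and control NSR and by -0.40 (SE 0.07, limma adjusted p = 0.00231) between light-exposed and control RPE. Whether probes of a cluster read transcripts of the overlapping gene was not tested. Spans of another gene overlapped 24 of the 77 genes, among them 8 of the 28 raised in RPE and 5 of the 11 raised in NSR. Several genes described above are among the 24: Mrpl37 (with Cyb5rl), Mrpl49 (Syvn1), Mrpl18 (Tcp1), Mrps18b, Mrps27 and Mrps28. For them, too, the part of the overlapping genes was not tested. Mrpl52 and Mrpl35 have no such overlap.

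**Figure D4:**
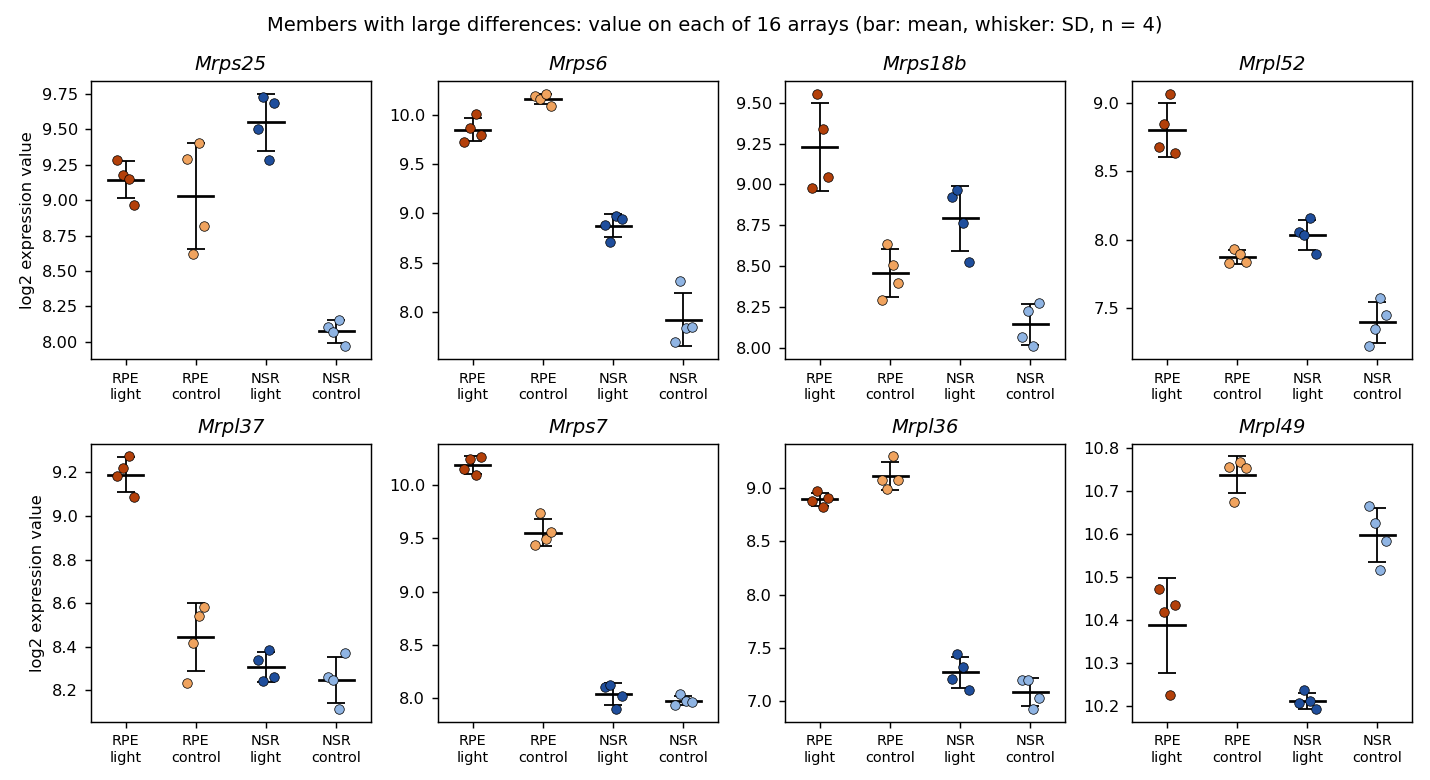
Log2 value on each of the 16 arrays for 8 of the genes described (points: arrays; long bar: mean; whiskers: SD, n = 4 per group), each panel with its own vertical axis. Mrps25 is lowest in control NSR and Mrps6 moves in opposite directions in the tissues; Mrps18b and Mrpl52 are higher after light in both tissues, Mrpl37 and Mrps7 are raised in light-exposed RPE, and Mrpl49 is lower after light in both.

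The tissues were also compared after light. In light-exposed mice 68 genes were higher in RPE, 1 was lower and 8 were not called (limma, adjusted p under 0.05), against 34.4% higher and 23.6% lower, 58.0% together, among all genes. RPE and NSR arrays did not overlap for 65 genes that were higher in RPE and 0 that were lower, against 30.3% and 21.6% of all genes; for the 1 gene called lower, Mrps25, they overlapped. The median difference was 0.56, against 0.08 over all genes. Of the 77 genes, 59 were higher in RPE in both kinds of mice and 9 were called in light-exposed mice only. Mrps7 led with 10.19 ± 0.08 in light-exposed RPE and 8.03 ± 0.10 in light-exposed NSR (SD, n = 4 each), a difference of 2.16 (SE 0.07, limma adjusted p = 4.43e-14). Mrpl36 followed with 1.63, Mrps18a with 1.59, Mrpl58 with 1.53, Mrpl20 with 1.24 and Mrps23, a small-subunit gene specific to mitochondria, with 1.17. With centred arrays, 72 members were higher and 0 lower while 51.5% of all genes were higher, the median of the members was 0.69 and that of all genes 0.20.

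Of the 8 genes with 2 clusters, Mrps33, Mrps36, Mrps5, Mrpl41 and Mrpl23 gave tissue differences of the same sign in control mice from both clusters, as did Mrpl27 and Mrpl51. Mrpl47 did not: its brighter cluster was higher in control RPE than in control NSR by 0.70 and the other differed by -0.16, and in light-exposed RPE they differed from control RPE by -0.10 and 0.25. For Mrps5, the rise in light-exposed RPE was 0.42 on one cluster and 0.39 on the other.

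Other genes of mitochondrial translation were taken from lists drawn up with earlier results of these data known. Among 5 further genes whose proteins are part of the mitochondrial ribosome or bind it, 3 rose in light-exposed RPE and 1 in light-exposed NSR, and 0 fell. Of all genes, 9.08% rose and 8.53% fell in RPE, and 8.87% rose and 6.24% fell in NSR. Dap3, a GTP-binding protein of the small subunit, rose by 0.40 in RPE (SE 0.12, limma adjusted p = 0.0423) and by 0.34 in NSR (SE 0.07, limma adjusted p = 0.00532). Chchd1, also of the small subunit, rose by 0.37 in RPE (SE 0.07) and differed by 0.04 in NSR, and its responses differed by 0.33 (SE 0.09, limma adjusted p = 0.0247). Between control RPE and control NSR, 2 of the 5 genes were higher in RPE and 1 was lower, with a median of 0.28. Among all genes, 30.8% were higher and 24.2% lower. The 1 lower gene was Ptcd3, of the small subunit too, with a log2 difference of -0.64 (SE 0.07). The RPE call of Dap3 was lost without light-exposed RPE array 1, 3 or 4, without control RPE array 2, 3 or 4, with the replicate block and without the arrays that stood apart (limma adjusted p up to 0.111), and that of Chchd1 without the arrays that stood apart (adjusted p = 0.0567). The difference for Chchd1 was lost without light-exposed mouse 2, any of the 4 control mice or the arrays that stood apart (adjusted p up to 0.0666).

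Assembly factors, translation factors and tRNA synthetases of mitochondria rose in part in light-exposed RPE, with 4 of 24, 6 of 14 and 5 of 19 genes higher and 0 lower. Their medians were 0.10, 0.20 and 0.12, against 0.18 for the ribosomal proteins. These are 16.7%, 42.9% and 26.3%, beside 9.08% of all genes. In light-exposed NSR, 2 of 24, 2 of 14 and 0 of 19 were higher, beside 8.87% of all genes, so that the 8.33% of assembly factors was about the share of all genes. Fastkd2, a protein that binds the large ribosomal RNA, rose by 0.68 in RPE (SE 0.08), and Nars2, the asparagine enzyme among the tRNA synthetases, by 0.82 (SE 0.13). The calls named for Mrrf, Fastkd2, Nars2 and Lrpprc held under all alternatives run. Mrrf, the factor that recycles the ribosome after termination, rose by 0.51 in RPE (SE 0.07) and 0.63 in NSR (SE 0.10). Nsun4, which methylates the small ribosomal RNA and helps to join the subunits, rose by 0.93 in NSR (SE 0.09) and differed by 0.22 in RPE, not called, with responses that differed by -0.71 (SE 0.15, limma adjusted p = 0.00382). Lrpprc, which stabilizes mitochondrial mRNAs, rose by 0.47 in RPE (SE 0.06) and fell by 0.33 in NSR (SE 0.07), and these responses differed by 0.80 (SE 0.08, limma adjusted p = 4.46e-06).

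In control mice, 9 assembly factors were higher and 6 lower in RPE, 4 translation factors were higher and 4 lower, and 3 tRNA synthetases were higher and 7 lower, with medians of 0.09, -0.01 and -0.05 beside 0.46. Assembly factors, at 37.5% higher and 6 of 24 lower, and translation factors, at 28.6% each way, were near the shares of all genes, 30.8% and 24.2%, and tRNA synthetases stood at 15.8% and 36.8%. Gtpbp10, a factor of large-subunit assembly, was higher in control RPE by 1.35 (SE 0.09), and Slirp, the partner of Lrpprc, by 0.88 (SE 0.06). Mtif2, the initiation factor that brings the first tRNA to the ribosome, was lower by 1.32 (log2 difference -1.32, SE 0.06). Both Lrpprc, at -0.50 (SE 0.06), and Nsun4, at -0.91 (SE 0.11), were lower in control RPE.

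Among 13 genes of mitochondrial transcription and its regulators, 3 rose in light-exposed RPE and 0 fell, beside 9.08% and 8.53% of all genes. In light-exposed NSR 4 of them rose and 3 fell, where 8.87% of all genes rose and 6.24% fell. Pprc1, a coactivator of the PGC-1 family, rose by 1.23 in RPE (SE 0.14, limma adjusted p = 0.000236) and by 0.69 in NSR (SE 0.08, limma adjusted p = 8.28e-05). Myc rose by 2.75 in NSR (SE 0.14, 6.73-fold) and differed by -0.01 in RPE (SE 0.16), so that its responses differed by -2.76 (SE 0.23, limma adjusted p = 4.5e-07). Ppargc1b, another coactivator of that family, fell by 0.66 in NSR (SE 0.07) and differed by -0.10 in RPE, not called. The difference between the responses of Pprc1, 0.54 (SE 0.17, limma adjusted p = 0.0375), was lost without any one of light-exposed mice 1, 2 and 3 or control mice 1 and 4, without the arrays that stood apart and with quantile normalization (adjusted p up to 0.143). Nrf1, a transcription factor of many nuclear genes for mitochondria, was lower in control RPE than in control NSR by 0.69 (log2 difference -0.69, SE 0.08).

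Complex I is built from subunits encoded in the nucleus and others made by the mitochondrial ribosome. Of its 34 nuclear subunit genes, 31 were higher in control RPE than in control NSR and 0 lower, with a median of 0.72, beside 0.46 for the ribosomal proteins. The 91.2% higher stand beside 30.8% of all genes higher and 24.2% lower. After light, 0 rose and 6 fell in RPE, with a median of -0.04, and 2 rose and 7 fell in NSR, with a median of -0.06. Ndufb11 fell by 0.33 in RPE (SE 0.06, limma adjusted p = 0.00539), a call lost without the arrays that stood apart (adjusted p = 0.0675). In NSR, Ndufb3 fell by 0.40 (SE 0.06) and Ndufa3 rose by 0.54 (SE 0.07). The 17.6% lower in RPE and 20.6% lower in NSR stand beside 8.53% and 6.24% of all genes. The 0 higher in RPE and 5.88% higher in NSR were below the shares of all genes, 9.08% and 8.87%.

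Only 2 genes encoded in mitochondrial DNA were measured with a symbol of their own, ND3, a core subunit of complex I, and COX2, a subunit of cytochrome c oxidase. ND3 had 11.85, 11.92, 11.88 and 11.97 in control RPE, against 12.21, 12.25, 12.23 and 12.16 in control NSR, with every RPE array below every NSR array. Its tissue difference was -0.30 (SE 0.07, limma adjusted p = 0.000748) in control mice and -0.33 (SE 0.07, limma adjusted p = 0.000323) in light-exposed mice, opposite in sign to the medians of the nuclear lists of complex I and of the ribosome. COX2 differed by -0.12 (SE 0.07, not called) in control mice and by -0.19 (SE 0.07, limma adjusted p = 0.0226) in light-exposed mice, where its arrays overlapped and the call was lost without light-exposed mouse 2 or 4 and with centred arrays (adjusted p up to 0.419). Neither gene was called between light-exposed and control mice, at -0.18 for ND3 and -0.23 for COX2 in RPE and -0.15 and -0.16 in NSR.

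The cytosolic ribosome makes all proteins encoded in the nucleus. Of 59 genes named Rpl or Rps, 36 rose in light-exposed RPE and 1 fell, with a median of 0.25, and 9 rose and 0 fell in light-exposed NSR, with a median of 0.10. These are 61.0% higher in RPE and 15.3% in NSR, beside 9.08% and 8.87% of all genes. In control mice 17 were higher and 12 lower in RPE, with a median of 0.04. These are 28.8% and 20.3%, near the shares of all genes, 30.8% and 24.2%. Rpsa rose by 0.91 in RPE (SE 0.07, limma adjusted p = 3.07e-05) and by 0.38 in NSR (SE 0.06, limma adjusted p = 0.00143). Rplp0 rose by 0.63 in RPE (SE 0.06) and by 0.88 in NSR (SE 0.07). These counts describe the lists, and no test compared one list with another.

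**Figure D5:**
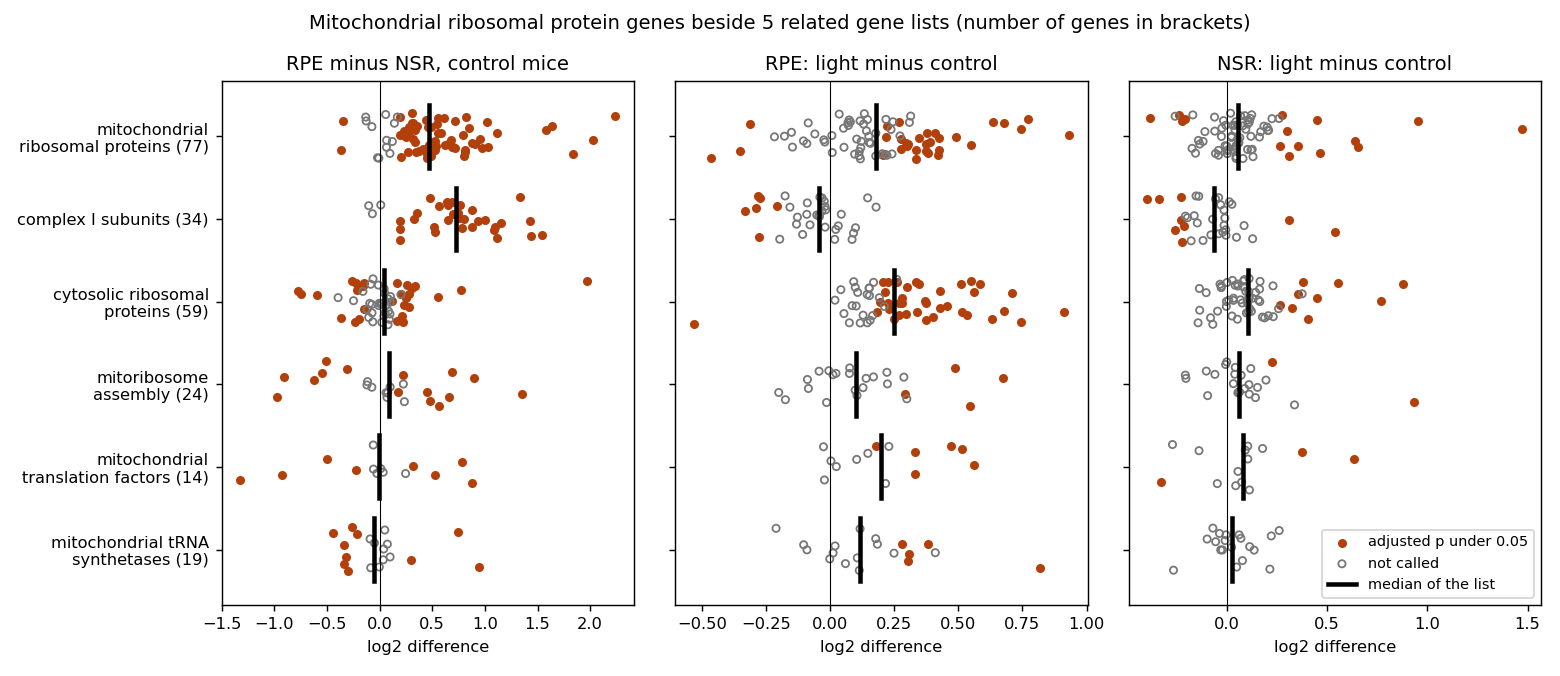
Log2 difference of each gene (points; filled at an adjusted p under 0.05) in 6 gene lists, with each list's median as a bar, for RPE minus NSR in control mice, light-exposed minus control in RPE and light-exposed minus control in NSR; horizontal axes differ between panels. The medians of the mitochondrial ribosomal proteins are 0.46, 0.18 and 0.05, those of complex I 0.72, -0.04 and -0.06, and those of the cytosolic ribosomal proteins 0.04, 0.25 and 0.10.

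Of the 77 genes, 16 are known to cause mitochondrial disease in humans when defective. In light-exposed RPE 8 of these rose and 1 fell, with a median of 0.20, and in light-exposed NSR 3 rose and 1 fell. The 8 of 16 higher in RPE stand beside 36.4% of all members and 9.08% of all genes, and the 18.8% higher in NSR beside 14.3% and 8.87%. Mrps28, Mrps7 and Mrps22 led the rise in RPE and Mrps25 that in NSR, with the values given above, and Mrpl49 fell in both.

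The promoters of the members were searched for short motifs. Windows of 300 bases, 250 before and 50 after the start, were available from RefSeq (GRCm38.p6) for 68 of the 77 genes and were searched on both strands for 7 motifs, chosen after the shares of several had been seen. GCATGCGC, the core recognized by NRF1, was found in 8 of the 68 windows, 11.8%, against 3.91% of 15563 measured genes with a window. CCGGAAG, of the ETS family, was found in 24, 35.3% against 12.5%, and AAGATGGC, of YY1, in 12, 17.6% against 3.43%. At least 1 of these 3 was present in 36 of the 68 windows, 52.9%, and in 18.3% of the measured genes. The GC box GGGCGG (34 of 68 windows, against 49.9%), the CCAAT box CCAAT (38.2% against 38.3%) and the E-box CACGTG (7.35% against 8.40%) were about as common as elsewhere, and TATAAA was found in 5.88% against 12.1%. The ETS motif was in 6 of 23 windows of members raised in light-exposed RPE and in 18 of the other 45 (26.1% and 40.0%). Motifs can overlap, as an ETS match and a GC box do in Mrpl17, and a match describes letters and not a bound site.

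The first 3 sequences are examples of the 8 members whose 300-base windows hold more than 1 of the NRF1, ETS and YY1 motifs. The others are shown because their genes had large light responses. Mrps18b is also 1 of the 8, but its ETS match is not within the bases shown. Each is the 250 bases before the start on the gene's strand, 5′ to 3′, with matches to any of the 7 motifs on either strand in capitals.
Mrpl17 (GRCm38.p6, chr7:105811088-105811337, minus strand): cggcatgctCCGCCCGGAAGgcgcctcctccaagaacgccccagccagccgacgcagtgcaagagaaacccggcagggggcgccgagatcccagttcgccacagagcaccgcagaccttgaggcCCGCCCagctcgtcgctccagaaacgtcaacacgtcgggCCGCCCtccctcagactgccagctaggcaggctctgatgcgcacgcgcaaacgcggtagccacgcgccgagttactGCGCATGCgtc
Mrpl22 (GRCm38.p6, chr11:58171414-58171663, plus strand): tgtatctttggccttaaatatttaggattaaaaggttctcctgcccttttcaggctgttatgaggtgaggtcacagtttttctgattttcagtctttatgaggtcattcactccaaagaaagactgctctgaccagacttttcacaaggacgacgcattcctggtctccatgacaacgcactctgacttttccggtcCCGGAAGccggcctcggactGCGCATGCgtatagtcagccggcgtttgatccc
Mrpl32 (GRCm38.p6, chr13:14613038-14613287, minus strand): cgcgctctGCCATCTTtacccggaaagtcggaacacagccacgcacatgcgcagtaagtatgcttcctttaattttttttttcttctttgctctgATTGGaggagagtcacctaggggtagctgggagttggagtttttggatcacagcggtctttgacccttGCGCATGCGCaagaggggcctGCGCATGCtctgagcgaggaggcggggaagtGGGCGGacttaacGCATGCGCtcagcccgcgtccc
Mrpl52 (GRCm38.p6, chr14:54426659-54426908, plus strand): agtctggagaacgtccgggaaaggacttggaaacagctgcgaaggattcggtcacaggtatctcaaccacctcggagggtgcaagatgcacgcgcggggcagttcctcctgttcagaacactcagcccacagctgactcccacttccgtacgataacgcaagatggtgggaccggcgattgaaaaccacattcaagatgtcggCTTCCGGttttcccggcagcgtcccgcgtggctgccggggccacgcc
Mrps18b (GRCm38.p6, chr17:35916441-35916690, minus strand): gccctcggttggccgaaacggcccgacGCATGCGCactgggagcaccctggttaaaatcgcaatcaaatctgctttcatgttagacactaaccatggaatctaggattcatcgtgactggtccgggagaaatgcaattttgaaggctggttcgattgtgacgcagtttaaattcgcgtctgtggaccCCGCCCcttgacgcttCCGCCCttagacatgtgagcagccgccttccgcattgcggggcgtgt
Mrps25 (GRCm38.p6, chr6:92184024-92184273, minus strand): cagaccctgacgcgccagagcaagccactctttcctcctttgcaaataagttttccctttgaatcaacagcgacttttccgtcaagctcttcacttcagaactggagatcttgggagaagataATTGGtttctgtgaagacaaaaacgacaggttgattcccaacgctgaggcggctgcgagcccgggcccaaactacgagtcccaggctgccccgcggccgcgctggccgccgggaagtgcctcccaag
Mrps6 (GRCm38.p6, chr16:92058086-92058335, plus strand): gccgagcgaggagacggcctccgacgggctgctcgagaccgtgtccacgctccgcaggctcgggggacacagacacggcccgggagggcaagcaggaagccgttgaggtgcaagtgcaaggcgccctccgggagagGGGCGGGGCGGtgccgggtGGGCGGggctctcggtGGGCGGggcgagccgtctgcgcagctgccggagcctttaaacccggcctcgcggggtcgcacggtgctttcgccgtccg

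In Mrpl17 an ETS match lies far upstream and an NRF1 match next to the start, and in Mrpl22 both lie near the start. Mrpl32 holds 4 NRF1 matches, of which 2 overlap, and a YY1 match at the far end. Mrpl52, with the largest rise in RPE, holds an ETS match, and Mrps18b an NRF1 match. The upstream bases of Mrps25 hold a CCAAT box, and those of Mrps6 4 GC boxes. Beyond these letters nothing was measured at the promoters.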

How the data were processed

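RNA from NSR and RPE of 8 mice was measured on 16 one-colour Affymetrix arrays. The deposited values are log2 expression values, which the authors obtained by RMA (Partek 6.6), as the submitters' processing notes say. For probe filters and the annotation version, the sources used here give nothing. They were used as deposited, with no further normalization and no filter. Of 35556 transcript clusters, 21789 carried 1 gene symbol, 1621 several and 12146 none here; the cluster with the highest mean represented each of 19938 genes.

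Light was tested within a tissue (8 arrays), and the tissues and the difference of responses in a fit of all 16 with 4 group means, using limma 3.58.1 in R 4.3.3 (lmFit, eBayes) with Benjamini-Hochberg adjustment over all genes at 0.05. The p-values rest on the spread between arrays of different mice within a group. The fit of all 16 took both tissues of a mouse as independent. Tables and figures used Python 3.11.15, pandas 2.3.3 and matplotlib 3.10.9. In data simulated with 19938 genes, 76% of 1.5-fold and 100% of 2-fold changes were recovered for light in RPE, and 57% and 92% for the difference of light responses. Only 100 genes were changed at each fold, with independent normal noise of the same SD in all 4 groups. In the real data 17.6% of genes were called for light in RPE. The adjustment depends on the share of genes changed, so these rates need not hold for the real data.

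The members and all lists were chosen with earlier results of these data known. The text names, for each comparison, the 6 called members with the largest difference in each direction, and the Mrps18 genes, Mrps30 and Mrps36. For other lists the rule gave the 2 called genes with the largest difference in each direction. Only part of these are named, so the genes shown of other lists are a selection. Slc5a3, Nr2c2 and the genes with promoters shown or 2 clusters were added after values were seen. The rule also named the members with the highest and lowest means, which are not printed because signals of different probes have no common scale.

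NSR and RPE of a mouse share its identifier and are paired by animal; the correlation of their deviations from the group means was -0.011 to 0.053. Light-exposed and control mice share only a replicate number. Alternatives were 2 scalings, a filter on the dimmest 25% of genes, the mean over a gene's clusters, array weights, a trended robust prior, the replicate block, all 16 arrays in the fit, each array or mouse left out in turn, and 3 RPE arrays left out together.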

Additional observations from a re-analysis of the deposited data

Results flagged for a closer look

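A value far from the other 3 of its group was found in 13 of the 212 groups of 4 arrays looked at, where chance gives about 1 in 20. Mrpl18 had 9.12 on light-exposed NSR array 2, with the others at 9.15, and Mrpl20 had 8.77 on light-exposed RPE array 2, with the others at 8.70. Mrpl49 had 10.67 on control RPE array 2, with the others at 10.75 to 10.77, and Mrpl58 had 10.46 on control RPE array 2, with the others at 10.53 to 10.54. Mrps18a had 10.94 on control RPE array 3, with the others at 11.01 to 11.03, and Mrps28 had 8.92 on light-exposed NSR array 4, with the others at 9.10 to 9.11. Mrps36 had 8.18 on control RPE array 2, with the others at 8.40 to 8.44, and Slc5a3 had 8.16 on light-exposed RPE array 4, with the others at 8.41 to 8.46. Nr2c2 had 9.31 on control RPE array 2, with the others at 9.42 to 9.43, and Nsun4 had 8.85 on light-exposed NSR array 3, below the others, of which the highest was 9.02. Ndufa3 had 10.62 on light-exposed RPE array 4, with the others at 10.45 to 10.47, and Ndufb3 had 9.70 on control RPE array 3, with the others at 9.61 to 9.62. The median of the 77 genes had 8.82 on control RPE array 3, with the others at 8.67 to 8.68. 

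The light response of RPE minus that of NSR was called, by limma's test of the difference itself, for 24 of the genes printed. Among the members it was above 0 at 0.47 for Mrpl1, 0.42 for Mrpl18, 0.48 for Mrpl32, 0.69 for Mrpl37, 0.47 for Mrpl55, 0.32 for Mrps22, 0.38 for Mrps5 and 0.58 for Mrps7, and below 0 at -0.40 for Mrpl36, -1.36 for Mrps25 and -1.27 for Mrps6. Among other genes it was above 0 at 0.33 for Chchd1, 0.56 for Fastkd2, 0.80 for Lrpprc, 0.52 for Mtrf1, 0.69 for Nars2, 0.55 for Ppargc1b, 0.54 for Pprc1 and 0.53 for Rpsa, and below 0 at -2.76 for Myc, -0.57 for Ndufa3, -0.61 for Nr2c2, -0.71 for Nsun4 and -1.57 for Slc5a3. Which of these calls were lost under other settings is given with each gene in the results, and the call of Mtrf1, a release factor, was lost without the 3 RPE arrays that stood apart.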

How the results depend on the processing

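The 26 members named by the rule gave 130 values, each recomputed under the 16 alternatives of its comparison (17 for light in RPE). In these, 0 called values changed sign, but 19 of the 81 called values lost their call at least once. The number of members lower in light-exposed NSR was 4 as reported, 1 with centred arrays, 1 with the replicate block and 1 to 3 with 1 array left out. Of all genes, 1244, 989, 1050 and 941 to 1098 were lower in these settings. Members higher in light-exposed RPE numbered 28 as reported, 13 without control RPE array 2 and light-exposed RPE arrays 1 and 2, and 22 to 27 with 1 array left out. Of all genes, 9.08%, 5.01% and 7.44% to 8.26% were higher in these settings. Members with a larger response in RPE numbered 12 as reported, 7 without those 3 arrays, and 7 to 10 with 1 mouse left out, the lowest without control mouse 2. The shares of all genes were 5.16%, 4.43% and 4.01% to 4.59%, with 4.03% without control mouse 2. With centred arrays the members' median tissue difference was 0.61 in control mice and 0.69 in light-exposed mice, against 0.46 and 0.56. In light-exposed mice 1 member was lower in RPE as reported, 0 with centred arrays and 0 to 1 with 1 mouse left out (0 without light-exposed mouse 2 or 4). Of all genes, 4710 were lower as reported and 3804 with centred arrays. Without light-exposed mouse 2 or 4 they numbered 4371 and 4476. Rpsa differed by 0.17 between RPE and NSR of light-exposed mice as reported and by -0.02 (-0.015) with quantile normalization. The replicate block was the same mouse for the tissues and the replicate number for light. With it, members higher and lower numbered 10 and 1 in NSR and 23 and 3 in RPE, while 8.42% and 7.63% of all genes were higher. Between tissues they numbered 62 and 2 in control mice and 67 and 1 in light-exposed mice, beside 30.1% and 33.4% of all genes higher. For the difference of responses they numbered 8 and 2, beside 4.45% of all genes above 0. The causes were not tested, except that fewer arrays were used where arrays were left out. The arrays give no signal over background, so that the precision of dim probes is unknown.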
